A study of Mus musculus with 4 samples.

Results

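The genes described here are 40 mouse genes of DNA replication and nucleotide supply, followed across 4 Affymetrix arrays. They were chosen by name from the known S phase machinery, with earlier results of these data known. Their shares beside those of all tested genes are therefore descriptions and not tests. A gene was represented by its brightest probe set among those annotated to that gene alone. Of the 40 genes, 39 had such a probe set, of 18193 genes in all, and Chaf1a had none. A comparison between groups used 38 of them, because all 4 Tyms probe sets lay below the filter on dim signals, which left 11677 tested genes.

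The arrays measured RNA of cells labelled as collecting lymphatic endothelium, taken from the vessels that drained flank tumours of mice. Both groups carried tumours of 293EBNA cells, a human embryonic kidney-derived line, grown to 2000 mm3. In the Apex group (2 arrays) the tumour cells held the empty APEX vector, and in the VEGFD group (2 arrays) the vector held VEGFD, the gene of the lymphatic growth factor VEGF-D. A blue dye in the tumour showed the draining vessels, which were dissected, and the endothelial cells were then sorted with magnetic beads. The sources used here do not give the mouse strain, sex and age, the bead antibody, or whether an array held 1 mouse or a pool, the extraction protocol speaks of lymph node endothelium, and the titles call the arrays biological replicates without saying more. The p-values therefore set a group difference against the spread between arrays of a group, partly borrowed from all tested genes. Whether that is a spread between mice is not known.

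A cell copies its DNA once in each S phase. Origin recognition proteins, Cdc6 and Cdt1 load the MCM helicase onto origins, Cdc45 and the GINS complex turn it on, polymerases with their sliding clamp copy both strands, and a set of enzymes supplies deoxynucleotides. E2F transcription factors switch many of these genes on together at the end of G1, so their messengers are widely used as signs of dividing cells. Resting vessel endothelium divides rarely, and growth factors such as VEGF-D are known to make lymphatic endothelium divide.

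Values are linear probe set signals, compared within a probe set only, and differences are on the log2(signal + 16) scale. The limits of the label bear on every result. Of 10 pan-endothelial markers, 5 lay above the filter signal of 25.3 on Apex replicate 1, 10 on Apex replicate 2, 6 on VEGFD replicate 1 and 3 on VEGFD replicate 2. The summed signal of these markers was 725, 4312, 1184 and 457 in that order. Of 6 lymphatic endothelial markers with a probe set, 2, 4, 3 and 3 lay above 25.3. Their summed signal was 1056, 2091, 1467 and 1938, most of it from Pdpn (963, 1622, 1237 and 1715). Flt4 (42.6, 247, 161 and 145) also lay above 25.3 on every array, whereas Prox1, the lymphatic master regulator, was below it on every array. The summed signal of 7 fibroblast markers was 15342, 14146, 16045 and 15791, that of 7 smooth muscle and pericyte markers 7085, 8516, 8673 and 15879, and that of 7 leukocyte markers 673, 611, 543 and 703. Of these leukocyte markers 4, 3, 4 and 4 lay above 25.3. Csf1r (503, 472, 335 and 558) made up most of their sum, and Cd68 and Lyz2 also lay above 25.3 on every array. Ptprc, the pan-leukocyte gene, was at most 13.0. The ratio of 3' to 5' signal for actin, a sign of RNA integrity, was 1.24, 1.45, 1.30 and 1.13. In mixed cells, fewer dividing cells and less messenger per cell cannot be told apart.

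The VEGFD arrays lay at opposite ends of the replication signals, with the Apex arrays mostly between them. VEGFD replicate 2 had the highest signal of the 4 arrays for 35 of the 38 tested genes, against 29.6% of all tested genes. VEGFD replicate 1 had the lowest for 30 of 38, against 23.6% of all tested genes. Their order was the same in 37 of 38, with replicate 2 above replicate 1 (47.4% of all tested genes), and in 31 of 38 the difference was at least 2-fold (5.53% of all tested genes). For 28 of the 38, both Apex arrays lay between the VEGFD arrays, which held for 10.2% of all tested genes. VEGFD replicate 2 lay at least 2-fold below replicate 1 for 0 of 38 (6.56% of all tested genes). The median gap between VEGFD arrays (replicate 2 minus replicate 1) was 1.46 for the replication genes and -0.036 for all tested genes. The median size of that gap, without its sign, was 1.46 and 0.35. The median size of the gap between Apex arrays was 0.30 for the replication genes and 0.25 for all tested genes. Apex arrays 2-fold apart in either direction were seen for 0 of 38 (4.98% of all tested genes). On VEGFD replicate 2 the summed signal of smooth muscle and pericyte markers was highest and that of pan-endothelial markers lowest. The first sum, which adds different probe sets and serves only as a description, was carried by Acta2 (3525, 4096, 4840.4 and 8802) and Tagln (454, 746, 1632 and 5553), contractile genes of smooth muscle and of activated fibroblasts. In the same list Pdgfrb (2978, 3479, 2123 and 1268) and Rgs5 (20.4, 46.0, 25.2 and 18.04), pericyte genes, were lowest on that array. The part of these cells in the replication signals was not tested.

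**Figure D1:**
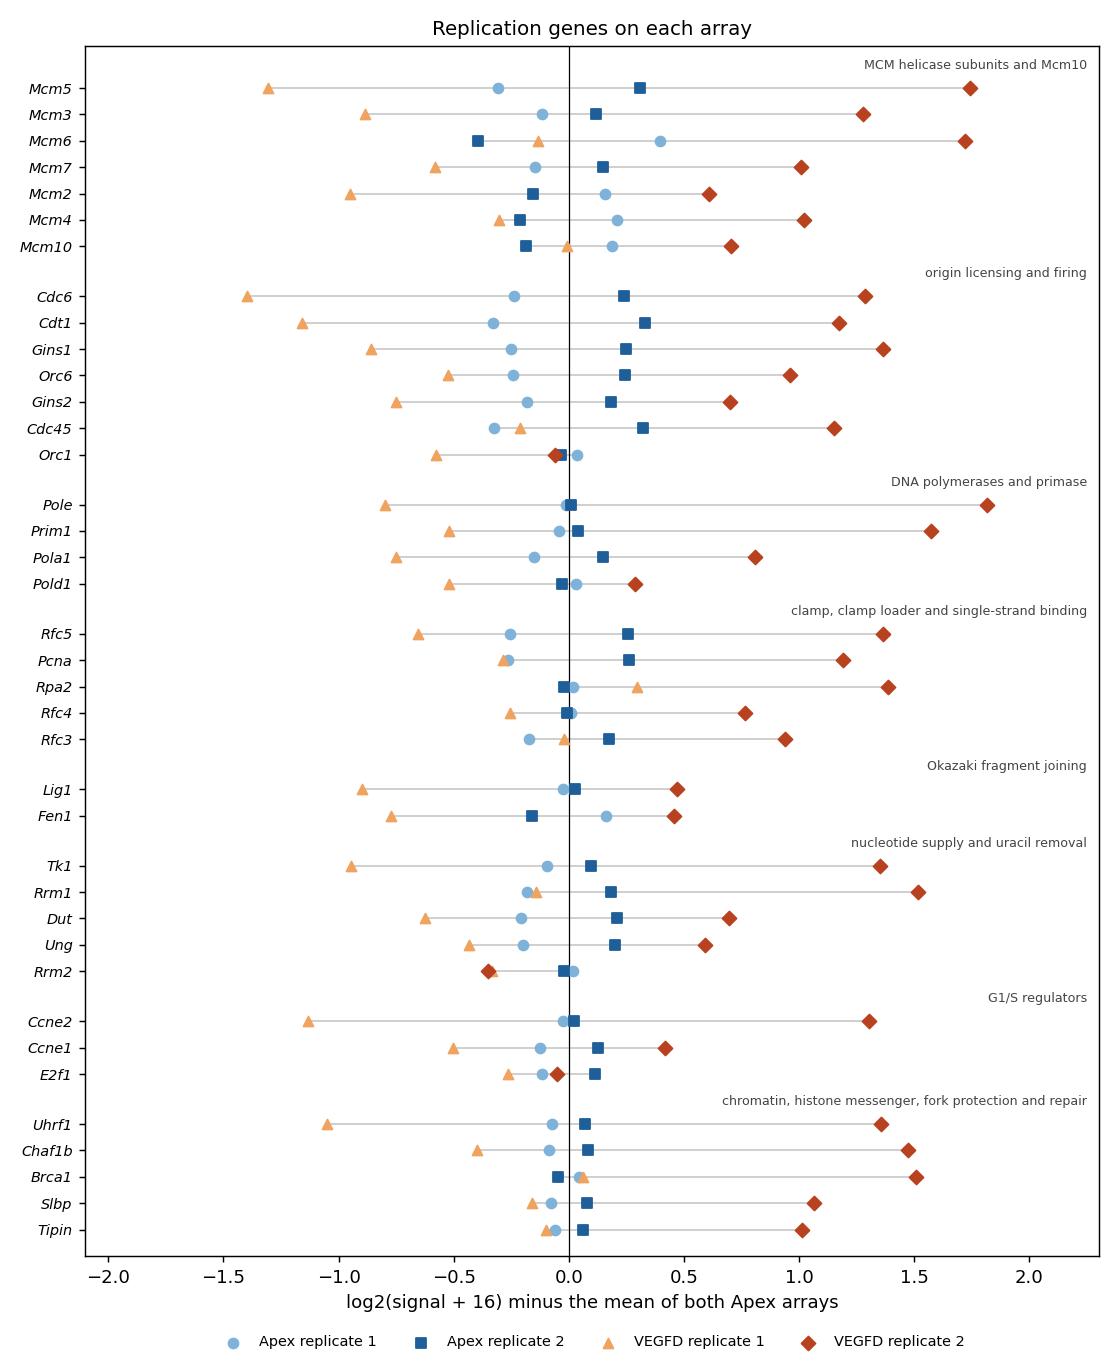
Signals of the 38 tested replication genes on each array, as log2(signal + 16) minus the mean of both Apex arrays (x axis), grouped by role. Diamonds (VEGFD replicate 2) lie farthest right for 35 genes and triangles (VEGFD replicate 1) farthest left for 30, with the Apex circles and squares between them for 28; Rrm2, E2f1 and Orc1 are the 3 genes whose diamond is not farthest right.

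The MCM genes encode the ring-shaped helicase that unwinds DNA ahead of the polymerases. Mcm5, a ring subunit, had an Apex signal of 166 on replicate 1 and 262 on replicate 2, and a VEGFD signal of 74.9 on replicate 1 and 737 on replicate 2. The VEGFD arrays thus lay on either side of both Apex arrays, 9.84-fold apart in signal, and the SD was 0.43 within the Apex group and 2.16 within the VEGFD group (n = 2 each). The log2 change of Mcm5, VEGFD minus Apex, was 0.22 ± 0.98 (SE of the limma fit, here and below) with an adjusted p of 0.967. Mcm2, another ring subunit, had signals of 219.9, 174, 93.5 and 306 in the same order of arrays and a log2 change of -0.17 ± 0.54 (limma adjusted p = 0.950). Mcm6 had 212, 116, 142 and 556, so that the lowest value was that of Apex replicate 2. Its Apex gap of -0.79 was the largest in size among the replication genes in that group, and its log2 change was 0.79 ± 0.66, or 0.24 with averaged probe sets. Mcm3, Mcm4 and Mcm7 repeated the Mcm5 order at the top and bottom, with VEGFD replicate 2 over VEGFD replicate 1 at 5.13-fold, 2.58-fold and 3.11-fold. The dimmer Mcm3 probe sets disagreed. VEGFD replicate 2 was highest on those with 160 and 96.0 on that array, but not on those with 132 and 25.0. The probe set with 132 (177, 188, 53.0 and 132) had both VEGFD values below both Apex values. Mcm10, which helps to start unwinding, had the smallest gap of the 7, with 51.3 and 94.5 in the VEGFD arrays and 61.1 and 43.5 in the Apex arrays. On the brightest probe set of each of the 7 the highest signal was that of VEGFD replicate 2.

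The licensing factors showed the widest ratio. Cdc6, the ATPase that helps to load the helicase, had signals of 31.7 and 50.4 in the Apex arrays, and 5.35 and 121 in the VEGFD arrays. VEGFD replicate 2 was 22.7-fold above VEGFD replicate 1, a ratio that rests on a signal under the filter, and on the log2(signal + 16) scale the gap was 2.68. The log2 change of Cdc6 was -0.056 ± 0.87, and its sign turned to 0.066 with arrays centred on their medians. Cdt1, the partner of Cdc6 in loading, had 168, 275, 87.7 and 507, an Apex gap of 0.66 and a VEGFD gap of 2.33. Its groups had nearly the same mean, with a log2 change of 0.0080 ± 0.78. Cdc45, which joins the helicase when origins fire, had 30.7, 57.1, 34.5 and 114, and Apex replicate 1 was its lowest array. Its log2 change was 0.47 ± 0.53, or 0.020 with averaged probe sets. Gins1, a subunit of the GINS complex of the active helicase, had 21.7, 37.3, 8.70 and 99.2, and its relative Gins2 had 177, 233, 114 and 340.5. Both had the Apex arrays between the VEGFD arrays. Orc6, an origin recognition subunit, had 122, 177, 97.5 and 301.

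Orc1, the ATPase subunit of the origin recognition complex, departed from this order on its brightest probe set, before arrays were centred on their medians. Its signals were 94.6 and 89.5 in the Apex arrays and 56.4 and 87.5 in the VEGFD arrays, so both VEGFD values lay below both Apex values. The log2 change was -0.32 ± 0.29 (limma adjusted p = 0.836). A dimmer Orc1 probe set had 19.3, 24.8, 17.6 and 69.6, with VEGFD replicate 2 highest, and the average of both probe sets gave a log2 change of 0.090. The Orc1 probe sets therefore disagreed before centring. With arrays centred on their medians, VEGFD replicate 2 was highest on the brighter one too, and the groups overlapped.

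The polymerase genes followed the MCM order. Pole, the catalytic subunit of the leading strand polymerase, had 39.2 and 40.04 in the Apex arrays and 16.005 and 179.7 in the VEGFD arrays. The Apex values were almost equal (SD 0.015) while the VEGFD gap was 2.61 (SD 1.85), and the log2 change was 0.51 ± 0.84. Prim1, the primase subunit that lays down RNA primers, had 112, 119, 75.5 and 375. Pola1, the catalytic subunit of the polymerase that extends those primers, had 64.3, 82.9, 37.1 and 140.0 and a log2 change of 0.029 ± 0.54. Pold1, the catalytic subunit of the lagging strand polymerase, had a narrower range, with 80.6, 76.8, 49.9 and 99.4. VEGFD replicate 2 was highest and VEGFD replicate 1 lowest for all 4 of these genes.

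Pcna encodes the sliding clamp that holds polymerases on DNA. Its signals were 946 and 1368 in the Apex arrays and 932 and 2618 in the VEGFD arrays. VEGFD replicate 1 lay just under Apex replicate 1, and the difference between the groups came from VEGFD replicate 2, with a log2 change of 0.45 ± 0.52 (limma adjusted p = 0.865) that was -0.28 without that array. Rfc3, Rfc4 and Rfc5, subunits of the loader that opens the clamp, had VEGFD gaps of 0.96, 1.02 and 2.02. Rpa2, a subunit of the single-strand binding protein, had 50.7, 48.9, 64.7 and 156, and both of its VEGFD values lay above both Apex values. Its log2 change of 0.84 ± 0.42 was the largest among the 38 genes, with an unadjusted p of 0.0951 and an adjusted p of 0.823 in the limma fit.

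Fen1, the nuclease that trims Okazaki fragments, had 347, 274, 174 and 429. Its log2 change was -0.16 ± 0.45, or 0.30 with averaged probe sets. Lig1, the ligase that joins the trimmed fragments, had 138, 144, 68.3 and 202 and a log2 change of -0.21 ± 0.48. In both genes VEGFD replicate 2 was the highest array and VEGFD replicate 1 the lowest, and the VEGFD mean was the lower one.

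Among the nucleotide genes, the subunits of ribonucleotide reductase, the enzyme that makes deoxynucleotides from ribonucleotides, differed from each other. Rrm1, the large subunit, had 242, 316, 249 and 823, a VEGFD gap of 1.66 and a log2 change of 0.69 ± 0.56. Rrm2, the small subunit whose messenger is known to follow S phase, had 4609.5, 4489, 3601 and 3568. Its VEGFD arrays were nearly equal (gap -0.013), its Apex arrays too (gap -0.038), and both VEGFD values lay below both Apex values. The log2 change of Rrm2 was -0.34 ± 0.19, the lowest of the 38 genes, with an unadjusted p of 0.128 and an adjusted p of 0.825 in the limma fit. The other Rrm2 probe sets had VEGFD gaps of 0.16 and -0.18, so none of its probe sets repeated the gap of Rrm1. Tk1, the thymidine salvage kinase, had 58.7, 69.3, 25.4 and 188, a VEGFD ratio of 7.39-fold. Dut, which removes dUTP, and Ung, which cuts uracil out of DNA, had VEGFD ratios of 2.70-fold and 2.85-fold, the latter over a VEGFD replicate 1 signal of 20.5, below 25.3. A dimmer Dut probe set had 46.0, 57.7, 22.5 and 5.44, the opposite VEGFD order, and averaging both turned the log2 change of Dut from 0.037 to -0.60. Tyms, the enzyme that makes thymidylate, had 15.4, 5.86, 1.45 and 22.5 on its brightest probe set, all below 25.3, and was not tested.

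The regulators of entry into S phase also differed among themselves. E2f1, an activating E2F factor, had 193, 229.7, 173 and 203, a VEGFD gap of 0.21 that was smaller than its Apex gap of 0.23, and a log2 change of -0.16 ± 0.25. Its groups overlapped within a narrow range. Ccne2, a cyclin that drives the kinase CDK2, had 102, 106, 38.8 and 281, a VEGFD ratio of 7.23-fold. Ccne1, the other E cyclin, had 204, 246, 153 and 305, a ratio of 1.99-fold, and a log2 change of -0.044 ± 0.37 that was 0.079 with arrays centred on their medians. The VEGFD gap was larger than the Apex gap in 36 of the 38 genes, against 60.0% of all tested genes. The exceptions were Rrm2 and E2f1. With arrays centred on their medians E2f1 left the exceptions, and VEGFD replicate 2 was its highest array.

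Genes that act on the new chromatin and at stressed forks repeated the order of the helicase genes. Uhrf1, which brings the maintenance DNA methyltransferase to copied DNA, had 72.8, 82.0, 29.1 and 223 and a log2 change of 0.15 ± 0.78. Chaf1b, a subunit of the histone chaperone CAF-1, had 51.2, 59.6, 38.0 and 182. Slbp, which binds the stem-loop of histone messengers, had 319, 357, 300.2 and 723, and Tipin, a fork protection factor, had 361, 394, 351 and 776. In these 4 genes VEGFD replicate 1 was the lowest array and VEGFD replicate 2 the highest. Brca1, which protects and repairs forks, had 35.2, 32.0, 35.7 and 125, with both VEGFD values above both Apex values, the first of them by a margin of under 1 signal unit. Its log2 change was 0.78 ± 0.51 (limma adjusted p = 0.826), or 0.40 with averaged probe sets. The next Brca1 probe set had 32.1, 57.9, 50.5 and 40.3, with overlapping groups and VEGFD replicate 2 below VEGFD replicate 1.

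The gap between VEGFD arrays was also read on the probe sets that did not represent a gene. The replication genes had 46 such probe sets, of which 28 lay above the filter. VEGFD replicate 2 exceeded VEGFD replicate 1 on 23 of the 28, by at least 2-fold on 18, and was the highest array on 20. The opposite sign to the representing probe set was seen for 1 probe set each of Dut, Brca1, Cdc45, E2f1 and Rrm2, with VEGFD gaps of -0.84, -0.24, -0.27, -0.14 and 0.16. Of the 38 representing probe sets, 10 had an identifier ending in x or s, the endings Affymetrix uses where probes can match other transcripts. VEGFD replicate 2 was highest on 9 of those 10 and on 26 of the other 28.

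**Figure D2:**
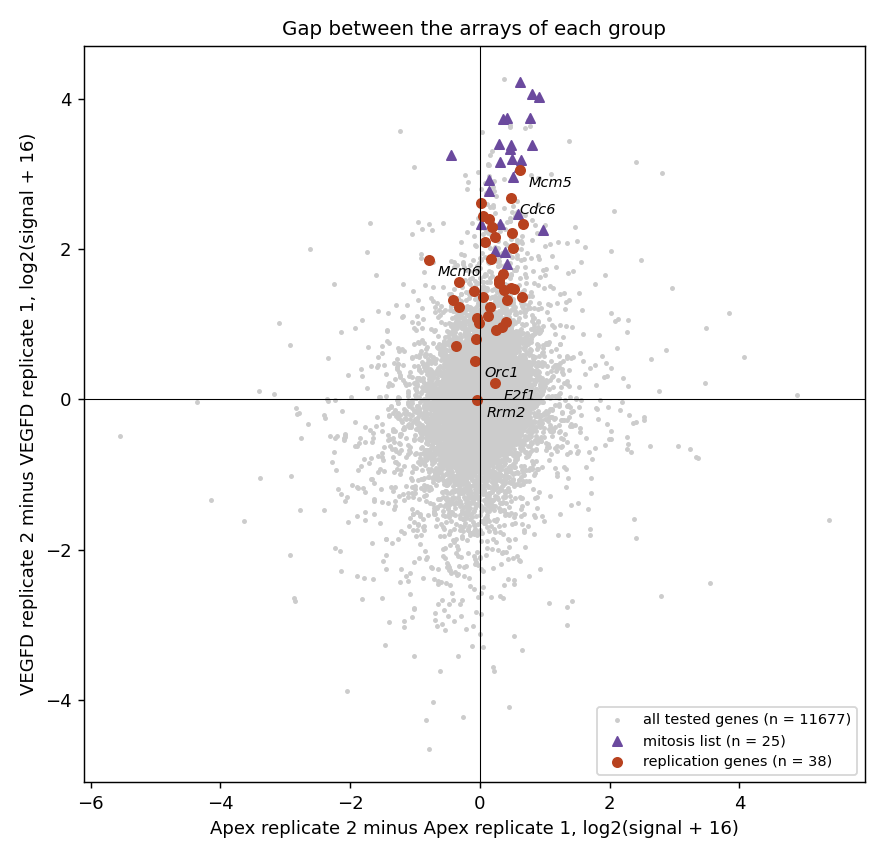
Gap between the arrays of the Apex group (x axis) and of the VEGFD group (y axis), as replicate 2 minus replicate 1 on the log2(signal + 16) scale, for each tested gene. The 38 replication genes (circles) spread from -0.013 to 3.05 on the y axis and from -0.79 to 0.66 on the x axis, and the 25 mitosis genes (triangles) reach 4.22 on the y axis.

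No replication gene passed the comparison of groups. The limma fit put 0 of the 38 under an adjusted p of 0.05, and 0.0% of all tested genes, and their adjusted p values ran from 0.823 to 0.998. At an unadjusted p under 0.05 in limma there were also 0, against 5.7% of all tested genes. The mean was higher in the VEGFD group for 28 genes and lower for 10, where 46.4% of all tested genes were higher, and with arrays centred on their medians, which shifts the median of all genes by 0.12, the split was 32 and 6. The median log2 change was 0.22 for the replication genes and -0.035 for all tested genes. No replication gene was 2-fold apart without overlap, against 3.88% of all tested genes. The groups did not overlap in 4 of the 38, against 38.5% of all tested genes. These were Rpa2 and Brca1, with both VEGFD arrays higher (16.6% of all tested genes), and Rrm2 and Orc1, with both lower (21.8% of all tested genes). With the replicate number as a block 0 of the 38 passed in limma, where 0.0514% of all tested genes passed.

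The sign of the group difference followed whichever VEGFD array was kept. Without VEGFD replicate 1, 35 of the 38 genes were higher in the remaining VEGFD array than in the Apex mean, with a median log2 change of 1.04, against 46.2% of all tested genes. In that fit 22 of 38 were 2-fold apart without overlap, against 11.5% of all tested genes. Without VEGFD replicate 2, 36 of the 38 were lower, against 52.5% of all tested genes, with a median of -0.52, and the exceptions were Rpa2 (0.30) and Brca1 (0.061). The medians of all tested genes in these fits were -0.047 and -0.021. With VEGFD replicate 1 left out, 4 of 38 genes passed in limma, Mcm5 (1.74, adjusted p = 0.0402), Rrm1 (1.52, adjusted p = 0.0374), Prim1 (1.57, adjusted p = 0.0359) and Pole (1.81, adjusted p = 0.0400), where 3.19% of all tested genes passed and 1.18% passed with a higher VEGFD value. That fit takes the lone VEGFD array to vary like the Apex arrays and holds no variation between VEGFD arrays. With VEGFD replicate 2 left out 0 passed, where 0.0343% of all tested genes passed. Without Apex replicate 2, which stood apart in the endothelial markers, 31 genes were higher and 7 lower, with a median of 0.30. Without Apex replicate 1, 23 were higher and 15 lower, with a median of 0.072.

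**Figure D3:**
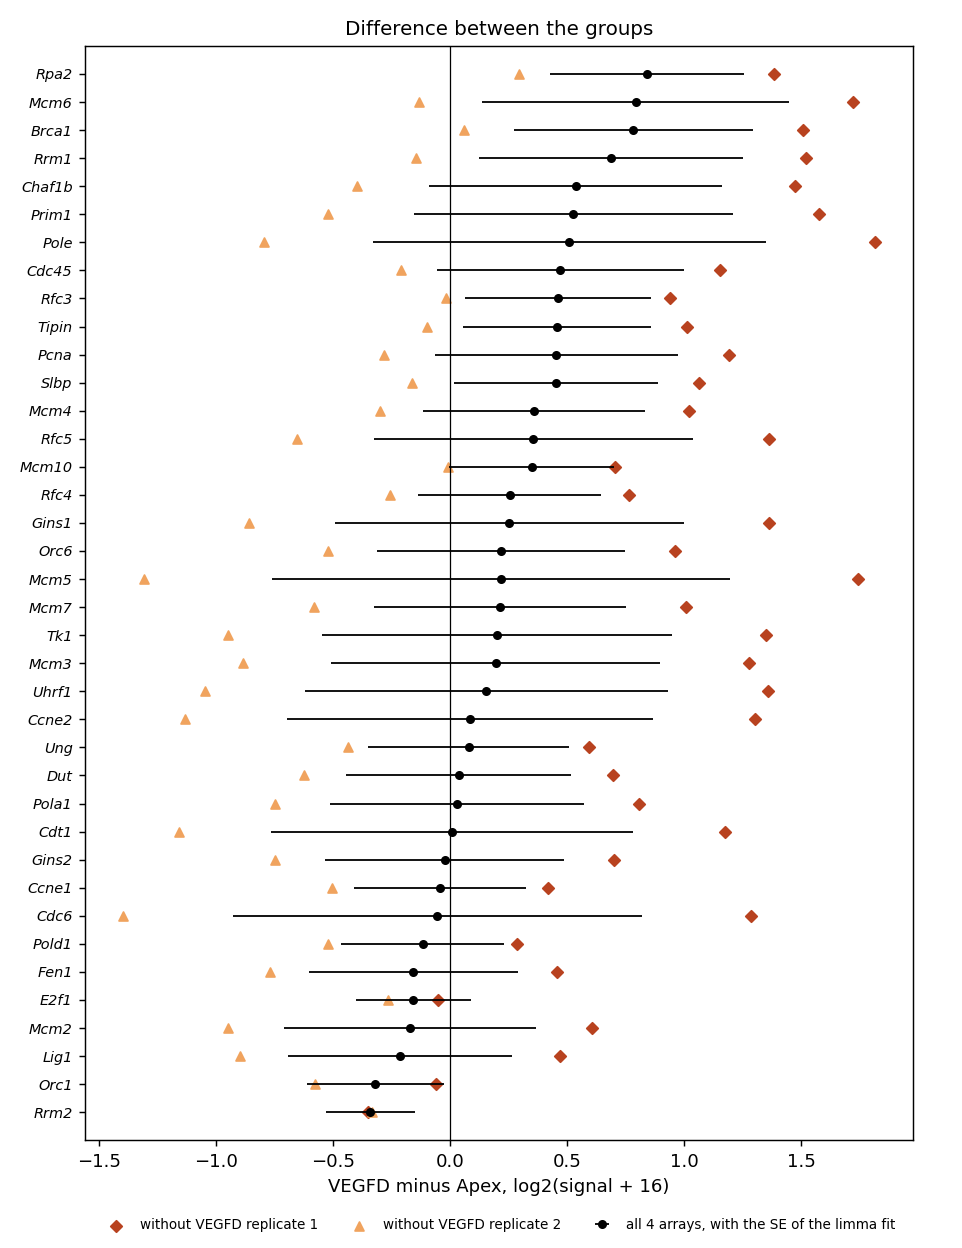
Log2 change between groups (VEGFD minus Apex, x axis, from log2(signal + 16)) of the 38 tested replication genes, with all 4 arrays (points, bars give the SE of the limma fit), without VEGFD replicate 1 (diamonds) and without VEGFD replicate 2 (triangles). The values from all arrays run from -0.34 (Rrm2) to 0.84 (Rpa2), and for most genes the diamond and the triangle lie on opposite sides of 0.

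Other genes of the same processes were read from wider lists. Of 37 further replication factors 34 were tested, 21 with a higher and 13 with a lower VEGFD mean, 0 past the limma threshold and 0 with an unadjusted p under 0.05. VEGFD replicate 2 was highest for 25 of the 34, and the median VEGFD gap was 0.63. Clspn, a checkpoint mediator at forks, had 43.1, 48.9, 36.8 and 170.3, and Pole2, a subunit of the leading strand polymerase, had 73.8, 72.2, 73.3 and 221. Pold3, a subunit of the lagging strand polymerase, had 69.2, 80.7, 19.1 and 113, and Rnaseh2c, a subunit of the enzyme that removes RNA from DNA, had 422, 584, 315 and 415, with the VEGFD values under the Apex values. The log2 changes were 0.68 for Clspn, 0.71 for Pole2, -0.43 for Pold3 and -0.44 for Rnaseh2c.

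Further nucleotide genes were less uniform. Of 31 listed, 29 were tested, 16 higher and 13 lower with 0 past the limma threshold and 2 (Samhd1 and Prps2, 6.90% of the 29) with an unadjusted p under 0.05, close to the 5.7% of all tested genes, and VEGFD replicate 2 was highest for 18. Samhd1, which breaks down deoxynucleotides, had 354, 193, 645 and 454. The groups did not overlap (log2 change 1.002 ± 0.36), and its VEGFD gap of -0.49 ran against that of the replication genes. Prps2, which makes the ribose donor for nucleotides, had 1032, 1363, 806 and 477, also without overlap (log2 change -0.92 ± 0.33). Ppat, the first enzyme of purine synthesis, was at 0.45 ± 0.40, and Slc29a1, a nucleoside transporter, at -0.52 ± 0.27.

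Of 36 further S phase regulators, repair and chromatin assembly genes 30 were tested, 25 higher and 5 lower with 0 past the limma threshold, also at an unadjusted p under 0.05. VEGFD replicate 2 was highest for 25 of the 30, and the median VEGFD gap was 1.04. Nasp, a histone chaperone, had 96.5, 52.4, 76.3 and 311, and Atad2, a chromatin ATPase, had 139, 150.3, 146 and 440.0. E2f8, a repressing E2F factor, had 57.1, 67.9, 10.6 and 144, with a VEGFD gap of 2.59, whereas E2f5 had 194, 415, 245 and 202. E2f8 thus followed the replication genes and E2f5, like E2f1 before centring, did not.

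Mitosis genes showed the same order of arrays with wider gaps. Of 26 listed, 25 were tested, and in 25 of 25 VEGFD replicate 2 was the highest array and VEGFD replicate 1 the lowest. Their VEGFD gaps ran from 1.81 to 4.22 with a median of 3.19, and no replication gene had a gap above that median. Cdc20, an activator of the anaphase-promoting complex, had 246, 478, 125 and 2282, and Ttk, a spindle checkpoint kinase, had 28.5, 32.8, 11.6 and 172. Nuf2, a kinetochore protein, had 63.3, 139.8, 25.9 and 184, and Aurkb, the kinase of the chromosomal passenger complex, had 50.3, 66.0, 15.6 and 143. Of the 25, 22 had a higher and 3 a lower VEGFD mean, and 0 passed in limma, also at an unadjusted p under 0.05.

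**Figure D4:**
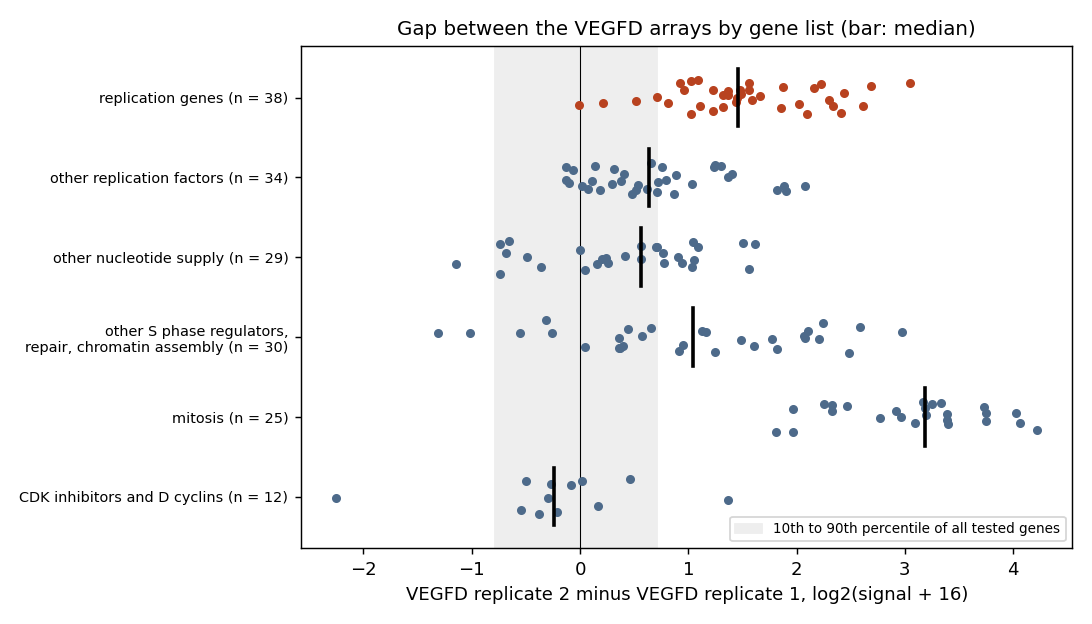
Gap between the VEGFD arrays (replicate 2 minus replicate 1, log2(signal + 16)) for each tested gene of 6 lists, with the median of each list as a bar and the range from the 10th to the 90th percentile of all tested genes (-0.78 to 0.71) shaded. The medians are 1.46 for the replication genes, 0.63 for other replication factors, 0.56 for other nucleotide genes, 1.04 for other S phase genes, 3.19 for mitosis and -0.24 for CDK inhibitors and D cyclins.

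Because many of these genes are known E2F targets, their promoters were read from RefSeq (GRCm38.p6, 250 bases before to 50 after the start). The choice of such genes favours E2F letters whatever the arrays showed. A link between the letters and the order of arrays was not tested. The table held 34 of the 40 genes. The letters TTTGGCGC, TTTCCCGC, TTTGCCGC or TTTCGCGC of the E2F motif, on either strand, were found in 12 of the 34 (35.3%) and in 2.6% of all 27025 genes of the table. The CCAAT box, on either strand, was found in 20 of the 34 (58.8%) and in 41.1% of all genes. All 12 genes with E2F letters were tested, and VEGFD replicate 2 was highest for 11 of them, with a median VEGFD gap of 1.72. Of 20 tested genes without these letters in the window it was highest for 18, with a median gap of 1.34. The sequences below are shown for the MCM genes with a match and for Cdt1 and Rfc3, which act beside them. Orc1 is added because its brightest probe set departed from the common order before centring. Capitals mark the E2F letters, overlapping matches are run together, further matches of Mcm6 and Mcm7 lie outside the stretch shown, and each is written 5' to 3' on the strand of the gene.
Mcm3 (chr1:20820263-20820321, minus strand): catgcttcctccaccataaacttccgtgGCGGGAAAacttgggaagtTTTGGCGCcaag
Mcm5 (chr8:75109328-75109395, plus strand): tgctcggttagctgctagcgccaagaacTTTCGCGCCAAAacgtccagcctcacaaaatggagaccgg
Mcm6 (chr1:128359780-128359843, minus strand): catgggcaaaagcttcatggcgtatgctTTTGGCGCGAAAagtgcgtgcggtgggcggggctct
Mcm7 (chr5:138172013-138172076, minus strand): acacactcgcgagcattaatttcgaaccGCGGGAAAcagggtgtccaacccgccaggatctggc
Cdt1 (chr8:122568019-122568064, plus strand): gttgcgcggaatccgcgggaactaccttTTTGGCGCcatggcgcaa
Rfc3 (chr5:151651173-151651246, minus strand): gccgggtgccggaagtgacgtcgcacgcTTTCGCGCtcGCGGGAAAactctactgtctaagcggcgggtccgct
Orc1 (chr4:108579399-108579462, plus strand): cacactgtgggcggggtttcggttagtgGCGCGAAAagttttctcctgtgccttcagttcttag
The Mcm5 window, with overlapping matches, belongs to the gene with the widest VEGFD gap (3.05). Mcm6, also with overlapping matches, had a gap of 1.86, and Cdc6, with 1 match, had 2.68. The Orc1 window belongs to the gene with the narrowest gap among the 12 (0.52), though its dimmer probe set had 1.35. Rrm2 and E2f1 had no match in their windows, which says only that these letters were not found there.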

How the data were processed

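Per the labels' protocols, total RNA was labelled with biotin and hybridised to Affymetrix mouse arrays. The deposited values are linear intensity, 1 signal per probe set, and the sources used here do not give the software behind them. The mean signal of an array after trimming 2% at each end averaged 150 over the 4 arrays. Of 45101 probe sets, 64 were controls, 34945 had 1 gene symbol, 932 had several and 9160 were unnamed here. A gene took its probe set with the highest mean signal, and genes whose mean log2(signal + 16) reached the median of non-control probe sets (5.37, a signal of 25.3) were tested. The groups were fitted in limma 3.58.1 under R 4.3.3 (lmFit, then eBayes with its prior variance following intensity), and two-sided p-values were adjusted by Benjamini-Hochberg over 11677 genes and called below 0.05. Exact permutation of 2 against 2 arrays allows no p under 0.333. The fit was tested on simulated data. The number of arrays, 2 a group, limits the precision. The members and gene lists were chosen with earlier results of these data known. Members named with their value on each array are the 3 with the largest log2 change in each direction, the 3 with the largest gap in each group and the first of each role, with most of the rest added for a full account. From each further list the 2 genes with the largest log2 change in each direction are named. Alternatives changed the scaling, filter, pseudocount, probe set rule, variance trend and block, or left out an array.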

Additional observations from a re-analysis of the deposited data

How the results depend on the processing

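Over the alternatives to scaling, filter, pseudocount and probe sets, VEGFD replicate 2 stayed the highest array for 34 to 37 of 37 to 39 replication genes, and for 22 of 24 where a mean signal of at least 100 was asked. Centring moved that count to 37 of 38 and the share of all tested genes to 39.3%. E2f1 and Orc1 joined the count, and Rrm2 stayed outside it. That filter left 17 genes with a higher VEGFD mean, and centring arrays on their medians left 6 with a lower one. Leaving out 1 array moved the median log2 change of the replication genes from -0.52 to 1.04, the genes higher from 2 to 35, those lower from 3 to 36, those 2-fold apart without overlap from 0 to 22 (11.5% of all tested genes in the latter fit), and those past the threshold from 0 to 4. Over all genes 0 to 372 passed, and the values without each VEGFD array stand in the report. The replicate numbers are not said to pair arrays, and the Apex and VEGFD gaps correlated at r = 0.20 across all tested genes, which are not independent. With the replicate number as a block, 6 genes passed in limma and 0 of the replication genes. The log2 change turned sign, for a cause that was not tested, in 4 of 38 replication genes with centring, 2 with quantile normalization, 2 with each other pseudocount and 7 of 37 with averaged probe sets. Centring gave 0.079 for Ccne1, 0.066 for Cdc6, 0.098 for Gins2 and 0.0048 for Pold1, quantile normalization 0.018 for Cdc6 and -0.018 for Cdt1, a pseudocount of 64 gave 0.12 for Cdc6 and 0.0056 for Gins2, and a pseudocount of 1 gave -0.026 for Cdt1 and -0.016 for Pola1. Averaged probe sets gave 0.099 for Ccne1, 0.30 for Fen1, 0.045 for Mcm2, -0.050 for Mcm3, 0.22 for Gins2, -0.60 for Dut and 0.090 for Orc1. Leaving out 1 array turned the sign of 33 of 38 in at least 1 fit, 26 of them without VEGFD replicate 2. Among the genes named by rule the ranges were -0.51 to 0.42 for Ccne1, -0.21 to 1.15 for Cdc45, -1.40 to 1.29 for Cdc6, -1.16 to 1.18 for Cdt1, -0.77 to 0.46 for Fen1, -0.86 to 1.36 for Gins1, -0.90 to 0.47 for Lig1, -0.95 to 0.61 for Mcm2, -1.31 to 1.74 for Mcm5, -0.14 to 1.72 for Mcm6, -0.28 to 1.19 for Pcna, -0.75 to 0.81 for Pola1, -0.80 to 1.81 for Pole and -1.05 to 1.36 for Uhrf1. Signals near or below 25.3, as for Cdc6, Gins1, Pole and Ung on VEGFD replicate 1, limit the ratios built on them.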

Other observations

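Most of the listed CDK inhibitor, D cyclin and partner kinase genes did not share the order of the replication genes. Outside that list, Ccne1, Ccne2 and Cdk2 did share it. Of 12 CDK inhibitor, D cyclin and partner kinase genes, 4 had a higher and 8 a lower VEGFD mean, and 0 passed in limma. At an unadjusted p under 0.05 in limma there was 1, Cdkn2b (8.33%, against 5.7% of all tested genes). VEGFD replicate 2 was the highest array for 3 (25%, against 29.6% of all tested genes). Both Apex arrays lay between the VEGFD arrays, with replicate 2 higher, for 2, Cdkn2c and Cdk4 (16.7%, against 10.2% of all tested genes). Cdkn2b, which encodes the inhibitor p15, had signals of 907, 1000.2, 628 and 439 on Apex replicates 1 and 2 and VEGFD replicates 1 and 2, and a log2 change of -0.84 ± 0.26 without overlap. Cdkn1c, which encodes the inhibitor p57, had 2408, 1538, 2002 and 408, and its VEGFD gap of -2.25 ran against that of the replication genes. The D cyclin genes were named after their values were seen. Ccnd1 (5380.0, 7137, 4143 and 4646), Ccnd2 (4885, 5855, 4120.0 and 3564) and Ccnd3 (1174, 1015, 969.8 and 786) had both VEGFD values below both Apex values. In the whole list this held for 6 of 12 (50%, against 21.8% of all tested genes), also Cdkn1b, Cdkn2a and Cdkn2b. Both VEGFD values lay above both Apex values for 2, Cdk6 and Cdkn2d (16.7%, against 16.6% of all tested genes). Cdkn2c, which encodes the inhibitor p18, had 88.6, 112, 80.1 and 232, and was the 1 inhibitor with the order of the replication genes. Cdkn2d, which encodes the inhibitor p19, had 219, 219, 272 and 256, with both VEGFD values above both Apex values and a log2 change of 0.25 ± 0.22.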
